A study of Drosophila melanogaster with 4 samples.

Results

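The positions of H3K27me3 and H3K27ac were compared with each other in sorted neuroblast nuclei from Cut knockdown embryos of Drosophila melanogaster. The comparison used the 2 peak lists of the knockdown, 1 library for each mark, out of 4 libraries in the series. Each of 13922 protein-coding genes on X, 4 and the arms of chromosomes 2 and 3 (6 arms in all, dm6) was sorted by whether a peak of either mark overlapped its span by at least 1 bp. Both marks were found on 7393 genes, H3K27me3 only on 1179, H3K27ac only on 2386 and neither on 2964.

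All groups were sorted nuclei of embryos carrying wor-gal4, which drives expression in the nervous system from stage 11, and UAS-dsRed. Embryos had been collected over 16 h at 25 °C, and the groups differed in genotype, labelled Cut_KD (RNA interference against the homeodomain factor Cut) and Control. Neuroblasts divide to give the neurons and glia of the fly. Per the labels, sorting kept 0.5 to 3% of the nuclei, of which 50% or more were dsRed-positive, so other cells may contribute to either mark. Whether fewer cells of a type or less of a mark per cell lies behind a difference cannot be told apart in such bulk samples. In the labels, 1 catalogue number stands for both antibodies. This may be a clerical error, which the sources do not settle. If it is not, the lists would not compare different marks.

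H3K27me3 is laid down by Polycomb repressive complex 2 and marks developmental genes that are held silent, often over broad domains. H3K27ac is written by the acetyltransferase CBP, called Nejire in the fly, and marks active promoters and enhancers. A single histone tail cannot carry both marks on this lysine. Peaks of both marks at one place can therefore come from the other tail of a nucleosome, from neighbouring nucleosomes or from different cells, and peak lists do not separate these.

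With 1 library per mark and genotype there were no replicates, so no difference was tested and no p-value is given. Intervals are 95% exact Clopper-Pearson intervals and cover counting error only. The lists held 18692 H3K27me3 and 25519 H3K27ac peaks on the 6 arms in the knockdown, and 4238 and 25941 in the control. They covered 19.5 and 14.8 Mb in the knockdown, and 4.68 and 22.2 Mb in the control. No read counts come with peak lists, so the depth behind them is unknown, and a gene without a peak is below the authors' threshold and not shown to be free of the mark.

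Cell type markers were examined first. Over all genes, 70.2% carried H3K27ac and 61.6% H3K27me3. All 10 neuroblast markers carried H3K27ac, over a median of 31.6% of the gene span, against a median of 14.2% over all genes. The same genes were not free of the other mark. H3K27me3 lay on 9 of the 10, over a median of 50.0% of the span against 10.9% over all genes, and was missing only from ase, a proneural factor of neuroblasts. Markers of other cells carried H3K27ac too, on 7 of 7 neuronal markers (median 18.1% of the span), 5 of 6 glial markers, 7 of 8 muscle and mesoderm markers (median 10.9%), 5 of 5 epidermal and tracheal markers, and 6 of 7 gut, blood and fat markers (median 17.0%). The glial gene wrapper had neither mark, and bt (projectin of muscle) and Hml (hemolectin of blood cells) had no H3K27ac. Gut, blood and fat markers had the highest median H3K27me3 cover of the 6 marker groups, at 60.6%. The part that cells other than neuroblasts play in the results was not tested.

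Both marks together were the commonest state of a gene. They were present on 53.1% of genes (interval 52.3 to 53.9%), H3K27me3 alone on 8.47% (8.01 to 8.94%), H3K27ac alone on 17.1% (16.5 to 17.8%) and neither on 21.3% (20.6 to 21.98%). A gene with H3K27me3 had H3K27ac more often than a gene without it, at 86.2% against 44.6%. In the control libraries, 9.65% of genes had both marks, 1.37% H3K27me3 only, 64.1% H3K27ac only and 24.9% neither. There the share with H3K27ac was 87.6% among genes with H3K27me3 and 72.1% among genes without it. Of the 7393 knockdown genes with both marks, 5775 (78.1%) had H3K27ac only in the control and 1154 had both. The control H3K27me3 list was much the shorter, and the part that list length plays in these counts was not tested. At a -log10 q of at least 2, which keeps 27.9% of the H3K27me3 and 20.1% of the H3K27ac peaks of the knockdown, 1350 genes had both marks and 8276 neither.

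The share of genes with both marks rose with the length of the gene. It was 19.9% in the shortest decile (168 to 725 bp) and 94.0% in the longest decile (14627 bp or more), while the share with neither mark went from 55.8 to 1.29%. H3K27me3 alone went from 11.2 to 1.65%. Genes with both marks had a median span of 3590 bp, against 1627 bp for H3K27me3 only, 1712 bp for H3K27ac only and 1132 bp for neither. A long span has more room for a peak of either list, and the part of length in the sorting was not tested.

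**Figure D1:**
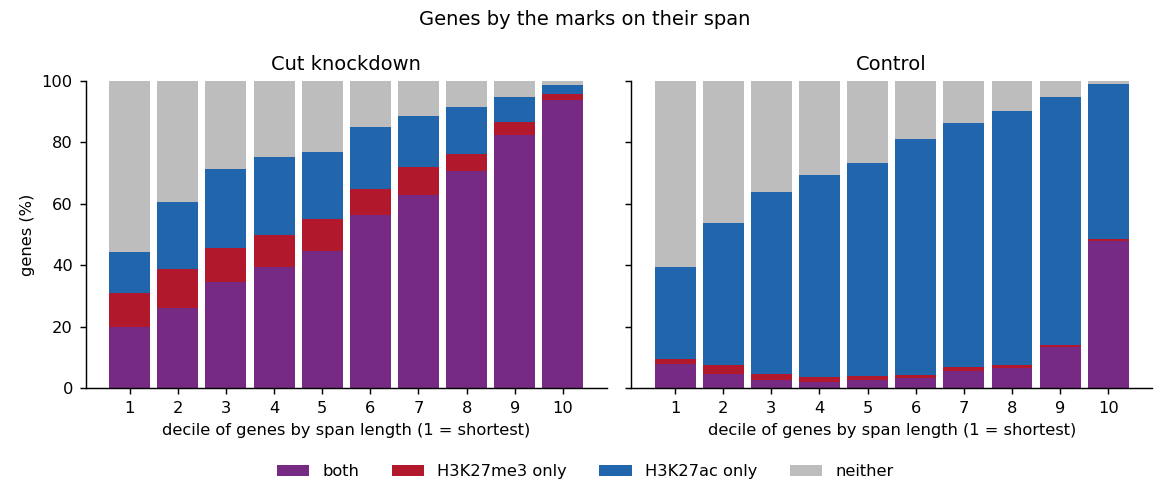
Stacked bars give the percent of protein-coding genes in each of 4 states (both marks, H3K27me3 only, H3K27ac only, neither), by decile of gene span length from the shortest to the longest, in the knockdown and control libraries. In the knockdown, genes with both marks go from 19.9% of the shortest decile to 94.0% of the longest, and in the control most marked genes carry H3K27ac only.

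By arm, both marks were found on 51.4% of genes on 2L, 55.2% on 2R, 53.7% on 3L, 56.3% on 3R and 48.0% on X. Genes of X had H3K27ac only in 23.7% (21.9 to 25.5%), against 15.4 to 16.5% on the other large arms. Chromosome 4, a small and largely heterochromatic chromosome, stood apart. On it 53 of 80 genes had neither mark (66.3%, 54.8 to 76.4%), among them ci, the transcription factor of Hedgehog signalling, and pho, which encodes a DNA-binding Polycomb protein. Both marks were on 13 of its genes, including the eye selector genes ey and toy, and H3K27me3 alone on 6, including pan, the transcription factor of Wnt signalling. In the control 45 of the 80 had neither.

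Within genes that carried both, the marks mostly met. They shared at least 1 bp in 6598 of 7393 genes (89.2%, 88.5 to 89.9%), touched without sharing in 2 and lay apart in 793 (10.7%). The median gene with both marks had 1017 bp of H3K27me3, 963 bp of H3K27ac and 460 bp under both at once. The median share of a gene's H3K27me3 bases that also lay under H3K27ac was 45.0% (quartiles 20.8 and 80.5%), and the median share of its H3K27ac bases under H3K27me3 was 50.5% (23.4 and 86.7%). Each mark had bases of its own beside the shared ones in 4568 genes (61.8%). All of the H3K27ac lay under H3K27me3 in 1172 genes (15.9%), all of the H3K27me3 under H3K27ac in 805 (10.9%), and both marks covered exactly the same bases in 53. With peaks at a -log10 q of at least 2 the marks shared bases in 59.8% of the genes that still had both. In the control libraries the marks shared bases in 966 of 1344 genes with both (71.9%, 69.4 to 74.3%).

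Read along the gene in either direction, the commonest order was H3K27ac, then both, then H3K27me3, in 1140 genes (15.4%). A stretch of both marks flanked by H3K27me3 on each side was next, in 596 (8.06%). The 2 marks separated by an unmarked gap followed in 487 genes (6.59%), and a stretch of both flanked by H3K27ac came in 281. The neuroblast genes wor and mira show the overlap at single genes. The snail-family gene wor, at 2L:15423297-15425580, had 1.44 kb of H3K27me3, 0.996 kb of H3K27ac and 0.741 kb under both. In mira, which encodes a scaffold for the fate determinants of dividing neuroblasts, 1.55 of the 1.64 kb of H3K27me3 lay under the 2.40 kb of H3K27ac. Both genes had H3K27ac only in the control.

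Sharing held at every gene length and its extent fell with length. The marks shared bases in 97.5% of the genes with both in the shortest decile, 84.5% in the eighth and 92.7% in the longest. The median share of H3K27me3 under H3K27ac went from 84.9% in the shortest decile to 29.5% in the longest, and that of H3K27ac under H3K27me3 from 100% to 40.1%. The median number of changes from one marked state to the next along the gene, unmarked stretches left out, rose from 1 to 8.

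The same meeting was seen from the peaks themselves. Of the H3K27me3 peaks, 11637 (62.3%) overlapped an H3K27ac peak and 1470 (7.86%) lay wholly inside one. Of the H3K27ac peaks, 13466 (52.8%) overlapped H3K27me3 and 5162 (20.2%) lay wholly inside it. By bases, 6.49 Mb lay under both marks, which is 33.3% of the H3K27me3 cover and 43.8% of the H3K27ac cover, and the first share was 10.6% at a -log10 q of at least 2. Around H3K27ac peak centres, H3K27me3 covered 40.4% of the centres themselves, 18.5% of the points 1 kb to the left and 17.8% of those 5 kb to the left. Around H3K27me3 centres, H3K27ac covered 34.8% of centres, 12.9% at 1 kb and 13.7% at 5 kb. The excess over the 5 kb level was therefore local, within about 1 kb of a peak centre. The 5 kb levels were themselves above the share of the 6 arms that each list covers (19.5 and 14.8 of 133.9 Mb). In the control, H3K27me3 covered 5.65% of H3K27ac centres and 3.17% at 1 kb, and H3K27ac covered 25.5% of H3K27me3 centres and 14.7% at 1 kb.

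**Figure D2:**
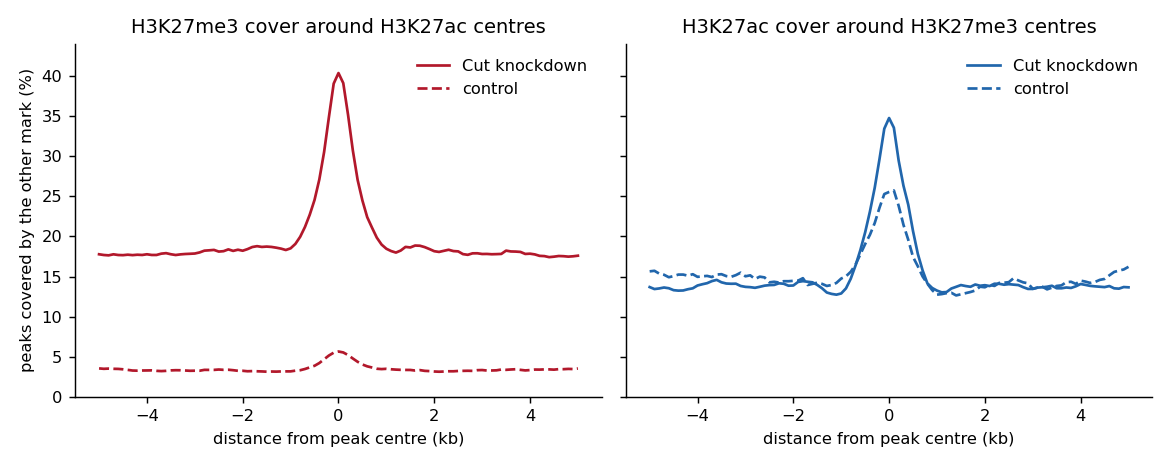
Lines give the percent of peaks of one mark at which the other mark covers a point, by distance from the peak centre in kb, with knockdown libraries as solid and control libraries as dashed lines. In the knockdown, cover peaks at the centres, at 40.4% for H3K27me3 on H3K27ac and 34.8% for H3K27ac on H3K27me3, and is near its 5 kb level beyond 1 kb.

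Chained together where they overlap, the peaks of both lists made 30536 clusters, of which 11438 (37.5%) held both marks. In 5112 of those (44.7%) 1 peak of each mark was staggered against the other, and in 3144 (27.5%) 1 H3K27ac peak lay inside 1 H3K27me3 peak. The reverse nesting was seen in 1342 (11.7%), and 1636 (14.3%) had 1 H3K27me3 peak with several H3K27ac peaks. Where there was 1 peak of each, the centres were a median of 214 bp apart. Around a nested H3K27ac peak, the H3K27me3 peak reached a median of 56.5 bp further on its shorter side and 521.5 bp on its longer side. In the control these medians were 61 and 685 bp. A shorter and a longer side arise by construction, and whether they differ more than under random placement was not tested.

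By the 1 bp rule, overlap followed the width of peaks. Among H3K27me3 peaks ranked by width, 43.3% of the narrowest decile and 84.4% of the widest overlapped H3K27ac, and the H3K27ac peaks went from 35.9 to 80.3%. A wider peak meets this rule more readily by construction. By bases there was no such rise for H3K27me3, with 32.9% of the narrowest and 32.4% of the widest decile under H3K27ac. For H3K27ac the share of bases under H3K27me3 did rise, from 31.3% in the narrowest to 51.4% in the widest decile. The authors' deposited fold enrichment had a median of 1.89 for H3K27me3 peaks with H3K27ac and 1.90 for those without. The decile of H3K27me3 peaks with the highest fold (2.17 or more) met H3K27ac least often among the deciles by fold, in 50.7% of peaks and over 19.7% of bases, against 67.3% of peaks and 35.2% of bases in the seventh decile. In the decile with the lowest fold, 58.4% of peaks and 41.3% of bases met it.

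**Figure D3:**
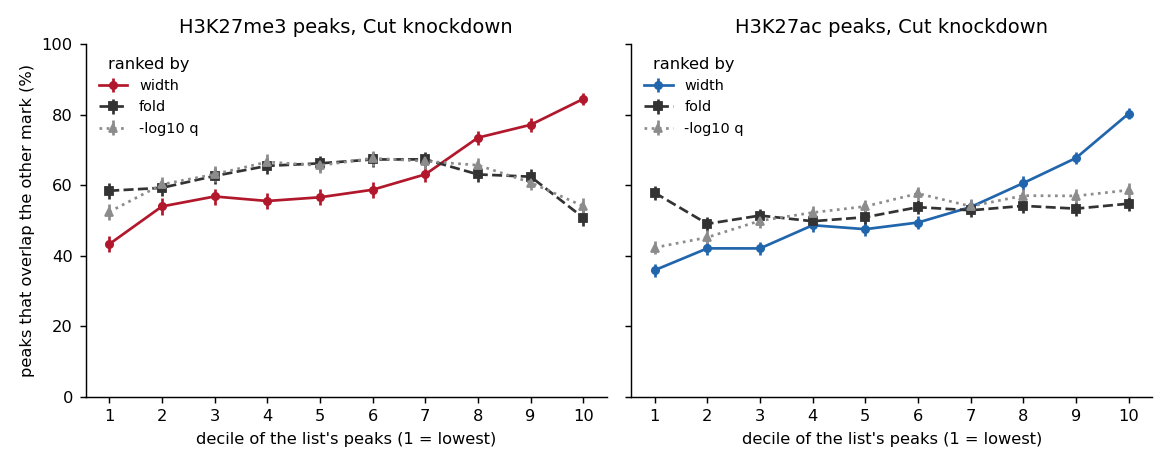
Points give the percent of knockdown peaks that overlap the other mark, by decile of the list ranked by width, by deposited fold or by deposited -log10 q, with 95% exact intervals as bars. By width the share goes from 43.3 to 84.4% for H3K27me3 and from 35.9 to 80.3% for H3K27ac, and the highest decile by fold of H3K27me3 stands at 50.7%.

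The arrangement of the 2 marks differed widely between kinds of genes, and the Hox genes stood at one end. These genes set segment identity and are textbook targets of Polycomb. All 8 had both marks, and 5 did at a -log10 q of at least 2, where 9.70% of all genes had both. Their median span was 30563 bp, and 94.0% of all genes of 14627 bp or more had both. H3K27me3 spread over the Hox genes as long blocks, covering a median of 57.1% of the span, and 96.2% of their summed H3K27ac lay inside those blocks. Only 18.2% of their H3K27me3 lay under H3K27ac, and there were 5.28 bases of H3K27me3 for each base of H3K27ac. Over all genes with both marks the same values were 47.1% of H3K27ac, 38.7% of H3K27me3 and a ratio of 1.22. The first of these shares was 25.0% when peaks below a fold of 2 were left out, and the second 18.8% at a -log10 q of at least 2. Across the other peak and gene settings run, the Hox share of H3K27ac inside H3K27me3 stayed between 89.6 and 96.3%, while the share of H3K27me3 under H3K27ac was between 3.22 and 18.3%, lowest at a -log10 q of at least 2.

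Antp, the thoracic Hox gene at 3R:6896253-6999228, had 53.3 kb of H3K27me3 and 12.3 kb of H3K27ac, of which 12.1 kb lay under both. The marked state changed 52 times along its span, unmarked stretches left out. Ubx (3R:16656623-16734426), which specifies the third thoracic segment, had 46.0 kb of H3K27me3 and 8.46 kb of H3K27ac, with 8.12 kb shared. In Abd-B, the Hox gene of the last abdominal segments, 5.11 of 5.14 kb of H3K27ac lay inside 25.8 kb of H3K27me3. In abd-A, the Hox gene of the anterior abdomen, the values were 3.21 of 3.23 kb inside 13.0 kb. In each of these 4 genes nearly all H3K27ac was nested and most H3K27me3 was free of it. In the control, 36.8% of the summed H3K27ac of the Hox genes lay under H3K27me3, against 10.8% over all control genes with both marks. For Antp 3.98 of 12.7 kb did.

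Genes that pattern the neuroectoderm in space were arranged like the Hox genes. Both marks lay on 38 of 41, against 53.1% of all genes. Their median span was 9107 bp, and 82.4% of all genes of 6477 to 14601 bp had both. At a -log10 q of at least 2 only 6 of the 38 still had both, and 9.70% of all genes had both. Of the H3K27ac of these patterning genes 93.6% was under H3K27me3, and of their H3K27me3 20.0% was under H3K27ac. Over the other settings the first of these 2 shares ranged from 73.2 to 93.7% and the second from 2.17 to 20.8%. The lowest value of each was at a -log10 q of at least 2. H3K27me3 covered a median of 76.9% of the patterning genes. The homeobox genes inv, a partner of engrailed, and Dll, the selector of distal limbs, had all of their 2.54 and 2.21 kb of H3K27ac inside 18.8 and 15.8 kb of H3K27me3. Of the other 3 members, ind and btd had H3K27me3 only, over 1.13 and 2.91 kb, and ci on chromosome 4 had neither. The zinc finger gene erm, which keeps intermediate neural progenitors from reverting to neuroblasts, had the same form, with 2.53 kb of H3K27ac inside 17.2 kb of H3K27me3. Its control libraries had 3.17 kb of H3K27ac, all of it inside 15.7 kb. The same form was seen in trh (3L:366524-392633), a tracheal and midline factor from the epidermis and trachea list, with all 2.26 kb of H3K27ac inside 21.1 kb of H3K27me3 in the knockdown.

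Housekeeping genes stood at the other end, with H3K27me3 that lay largely under H3K27ac. Their H3K27me3 peaks had a median width of 763.5 bp, against 768 bp on all genes with both marks and 1485 bp on the Hox genes. Of 19 housekeeping genes 13 had both marks (68.4%, against 53.1% of all genes) and 6 H3K27ac only. The median span of this list was 3434 bp, and 62.8% of all genes of 2834 to 4024 bp had both. In the 13 with both, 69.8% of the H3K27me3 lay under H3K27ac and 54.5% of the H3K27ac under H3K27me3, with 0.780 bases of H3K27me3 for each base of H3K27ac. At a -log10 q of at least 2 the share of H3K27me3 under H3K27ac was 36.6%, over the 5 genes that still had both. The tubulin gene alphaTub84B had 1.37 kb of H3K27me3, 1.75 kb of H3K27ac and 0.877 kb under both. Polr2A, the largest subunit of RNA polymerase II, had 3.13 kb of H3K27ac and no H3K27me3 peak. None of the 19 carried H3K27me3 in the control, where 11.0% of all genes did. Of control genes of 2834 to 4024 bp, 5.75% had both marks and 1.08% H3K27me3 only.

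The genes of large protein complexes had close shares of H3K27me3 under H3K27ac. Cytoplasmic ribosomal protein genes had both marks in 52 of 88, H3K27ac only in 23, H3K27me3 only in 4 and neither in 9. The share with both, 59.1%, was near the 53.1% of all genes, as were the 56.2 and 50.0% of the next lists. In the deciles of 726 to 1714 bp, where the median spans of these lists fall, 26.0 to 39.4% of all genes had both. In those with both, 73.4% of the H3K27me3 lay under H3K27ac. RpS9 was covered by both marks along 1503 bp of its 1739 bp, and RpL3 had 1.75 of its 1.83 kb of H3K27me3 under 2.66 kb of H3K27ac. Mitochondrial ribosomal protein genes had both marks in 41 of 73, and 66.9% of their H3K27me3 lay under H3K27ac. The gene mRpL44 carried both marks over its whole 1.17 kb. Proteasome subunit genes had both in 24 of 48, with 72.2% of the H3K27me3 under H3K27ac, and Rpn3 had both over 1.80 of its 1.89 kb. With the H3K27me3 list trimmed to the covered length of the H3K27ac list, 13 of the 48 proteasome genes had both, against 40.3% of all genes. The genes of these 3 lists are short, with median spans of 1325.5, 909 and 1381.5 bp, and in short genes the marks shared more of their bases. In the control 1 cytoplasmic ribosomal protein gene, 1 proteasome gene and no mitochondrial one had both marks. The control share was 9.65% over all genes and 2.15 to 4.51% in the deciles of 726 to 1714 bp.

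**Figure D4:**
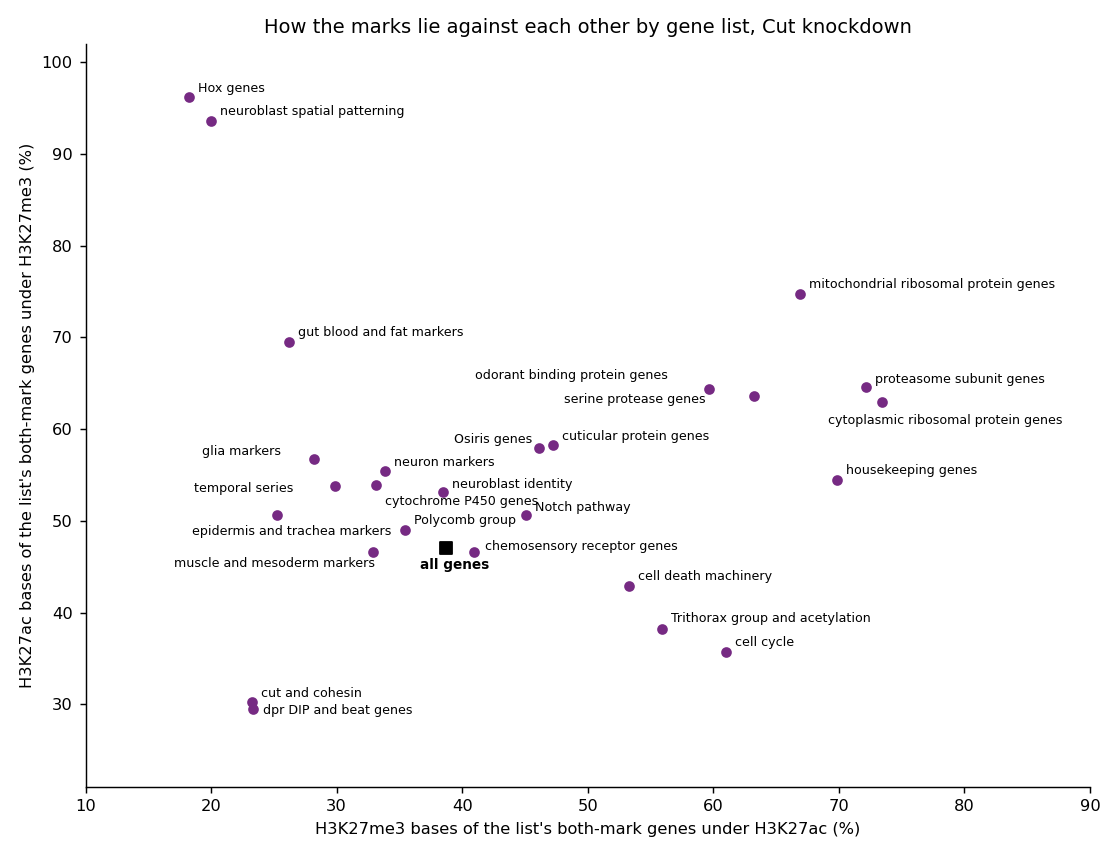
Each point is a gene list with at least 8 genes carrying both marks in the knockdown, placed by the percent of its H3K27me3 bases under H3K27ac (horizontal) and of its H3K27ac bases under H3K27me3 (vertical), summed over those genes, and the square is all genes with both marks. Hox and spatial patterning genes lie at the upper left (18.2 and 96.2%, 20.0 and 93.6%) and ribosomal, proteasome and housekeeping genes at the right.

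Other lists with at least 8 genes carrying both marks lay between these ends in the share of H3K27me3 under H3K27ac. Several were below both ends in the share of H3K27ac under H3K27me3. Outside the ends in the first share were the achaete-scute and proneural list (3 genes with both, 88.7%) and the cell death activators (2 genes, 14.5%). All 18 genes of the temporal series, the factors that neuroblasts express in sequence, had both marks, against 53.1% of all genes. Their median span was 32775.5 bp, and 94.0% of all genes of 14627 bp or more had both. Of their H3K27ac 53.8% lay under H3K27me3, and of their H3K27me3 29.9% lay under H3K27ac. Of 26 neuroblast identity genes 24 had both, at 53.1 and 38.4%. The exceptions were ase, with H3K27ac only (0.472 kb), and the tumour suppressor l(2)gl, with neither. Among them pros, the homeodomain factor that ends self-renewal in neuroblast daughters, had 31.4 kb of H3K27me3, 17.1 kb of H3K27ac and 11.5 kb under both. Of 19 Polycomb group genes 16 had both, at 49.0 and 35.4%. E(z), the methyltransferase that writes H3K27me3, had 0.934 kb of H3K27ac inside 2.76 kb of H3K27me3, whereas Pc, which binds the mark, had 1.01 kb of H3K27ac and no H3K27me3. Of 18 genes of the Trithorax group and of acetylation 16 had both, at 38.2 and 55.9%. The neuroblast identity, Polycomb and Trithorax lists had median spans of 7137 to 9416.5 bp. Of all genes of 6477 to 14601 bp, 82.4% had both. Cell cycle genes (median span 3280 bp) had both in 18 of 27 (66.7%), near the 62.8% of all genes of 2834 to 4024 bp. Of their H3K27me3, 61.0% lay under H3K27ac.

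Genes of the Cut and cohesin axis had both marks in 11 of 12, against 53.1% of all genes. Their median span was 4486.5 bp, and 70.8% of all genes of 4025 to 6472 bp had both. Cohesin is the ring complex that holds sister chromatids together and shapes chromatin loops. The targeted gene ct (X:7608428-7678859) had 5.36 kb of H3K27me3, 2.42 kb of H3K27ac and 0.744 kb under both in the knockdown. In the control ct had 2.49 and 1.01 kb with no shared base, and peak lists measure no transcript, so they do not show the extent of the knockdown. In vtd, which encodes the kleisin subunit of cohesin, all 0.341 kb of H3K27ac lay inside 0.422 kb of H3K27me3. In Nipped-B, the cohesin loader, 0.407 of 0.412 kb did, inside 0.534 kb. SA1, the cohesin subunit also called SA, had 1.49 kb of H3K27ac and no H3K27me3. Summed over the 11 genes, 30.2% of the H3K27ac lay under H3K27me3 and 23.3% of the H3K27me3 under H3K27ac.

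The 4 activators of cell death, whose proteins block the caspase inhibitor Diap1, had 4 different forms. At hid (3L:18167745-18185641), 0.397 kb of H3K27me3 and 0.771 kb of H3K27ac shared 0.018 kb. At grim (3L:18302719-18304417), all 0.146 kb of H3K27ac lay inside 0.734 kb of H3K27me3. That stretch is under the 150 bp of the stricter overlap rule, by which only hid had both marks, and at a -log10 q of at least 2 neither had. The gene rpr had 0.625 kb of H3K27me3 and no H3K27ac, and skl had neither mark. In the control, hid had 0.695 and 1.68 kb of the marks with 0.659 kb shared, grim and rpr had H3K27me3 only, and skl had neither. Of 16 genes of the death machinery (median span 2745 bp) 11 had both marks (68.8%). The share was 53.1% over all genes and 56.5% over those of 2164 to 2833 bp. Of 20 Notch pathway genes (median span 4212 bp) 16 had both (80.0%), against 70.8% of all genes of 4025 to 6472 bp. N itself, the receptor, had 2.79 kb of H3K27me3, 3.20 kb of H3K27ac and 0.795 kb under both. Its transcription factor Su(H) had 2.18 kb of H3K27ac and no H3K27me3, and the corepressor gro had 2.62 of 2.63 kb of H3K27ac under H3K27me3.

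Markers of differentiated cells carried both marks in at least 66.7% of each list, against 53.1% of all genes. The counts were 16 of 20 for neurons, 11 of 14 for glia, 20 of 26 for muscle and mesoderm, 18 of 20 for epidermis and trachea and 14 of 21 for gut, blood and fat. These are lists of long genes, with median spans of 8064 to 23982 bp. Of all genes of 6477 to 14601 bp, 82.4% had both. Among lists with median spans in that range, glia, muscle and gut markers were below this share, at 66.7 to 78.6%. Epidermis and trachea markers were above it. The neuron list, with a median span of 23982 bp, was below the 94.0% of all genes of 14627 bp or more. These differences were not tested. H3K27ac lay under H3K27me3 for 69.5% of its bases in the gut, blood and fat genes, and for 46.6 to 56.8% in the other 4 groups. The glial master gene repo was under H3K27me3 along its whole 3.41 kb, with 2.12 kb of H3K27ac inside.

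In several lists of genes with specialised uses the share with both marks was below the 53.1% of all genes, which was not tested. Of 179 chemosensory receptor genes 40 had both, 20 H3K27me3 only, 29 H3K27ac only and 90 neither. With the trimmed H3K27me3 list 24 of them had both, and 40.3% of all genes did. Of 51 odorant binding protein genes 10 had both and 26 neither, and of 85 cytochrome P450 genes 24 had both and 32 neither. Cuticular protein genes had both in 42 of 117 and H3K27me3 only in 21. Mucin genes had both in 5 of 13 and serine protease genes in 17 of 33, or 3 and 9 with the trimmed list. Osiris genes, a clustered insect family, had both in 16 of 25, so with the full list not all such lists were below all genes. With the trimmed list 10 of the 25 had both, near the 40.3% of all genes with that list. The long genes of the dpr, DIP and beat families, which encode cell surface proteins that match neurons with their partners, had both in 42 of 46, and only 29.5% of their H3K27ac and 23.4% of their H3K27me3 were shared. Among genes of 726 to 1023 bp 26.0% had both. Cuticular protein genes (median span 983 bp, 35.9%) and serine protease genes (937 bp, 51.5%) were above this. Odorant binding protein genes (788 bp, 19.6%) were below. Among those of 1343 to 1714 bp 39.4% did, with Osiris genes (1611 bp, 64.0%) above and chemosensory receptor genes (1691 bp, 22.3%) below. Cytochrome P450 (2102 bp, 28.2%) and mucin genes (5164 bp, 38.5%) were below the 44.6 and 70.8% of their length deciles. The dpr, DIP and beat genes spanned a median of 33176.5 bp, and 94.0% of the longest decile had both.

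In the longest genes with both marks, these alternated along the span. Changes of state were counted between marked stretches only, with unmarked ones left out. Myo81F, a gene of 1966 kb beside the centromere of 3R (3R:567076-2532932), had 127.0 kb of H3K27me3, 79.5 kb of H3K27ac and 43.8 kb under both, with 302 changes of state. Its neighbour Pzl, which encodes a mechanosensitive channel, had 60.2, 31.4 and 17.2 kb with 132 changes. The RNA-binding protein gene bru3 (3L:13521907-13803400) had 32.8 kb of H3K27me3, 28.5 kb of H3K27ac and 13.5 kb shared over 87 changes. In jing, a zinc finger gene listed with the Polycomb group, 12.3 kb was shared over 80 changes. After Myo81F and Pzl, the most shared sequence was in tara (3R:16225651-16260329), where 14.0 of 16.7 kb of H3K27me3 lay under 22.0 kb of H3K27ac. In the control tara had 1.18 kb of H3K27me3, all of it under 19.4 kb of H3K27ac. Tet, which encodes a DNA demethylase homologue, had 9.65 of 12.9 kb of H3K27me3 under H3K27ac, and the phosphatase gene Ptp61F 10.9 of 47.3 kb.

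**Figure D5:**
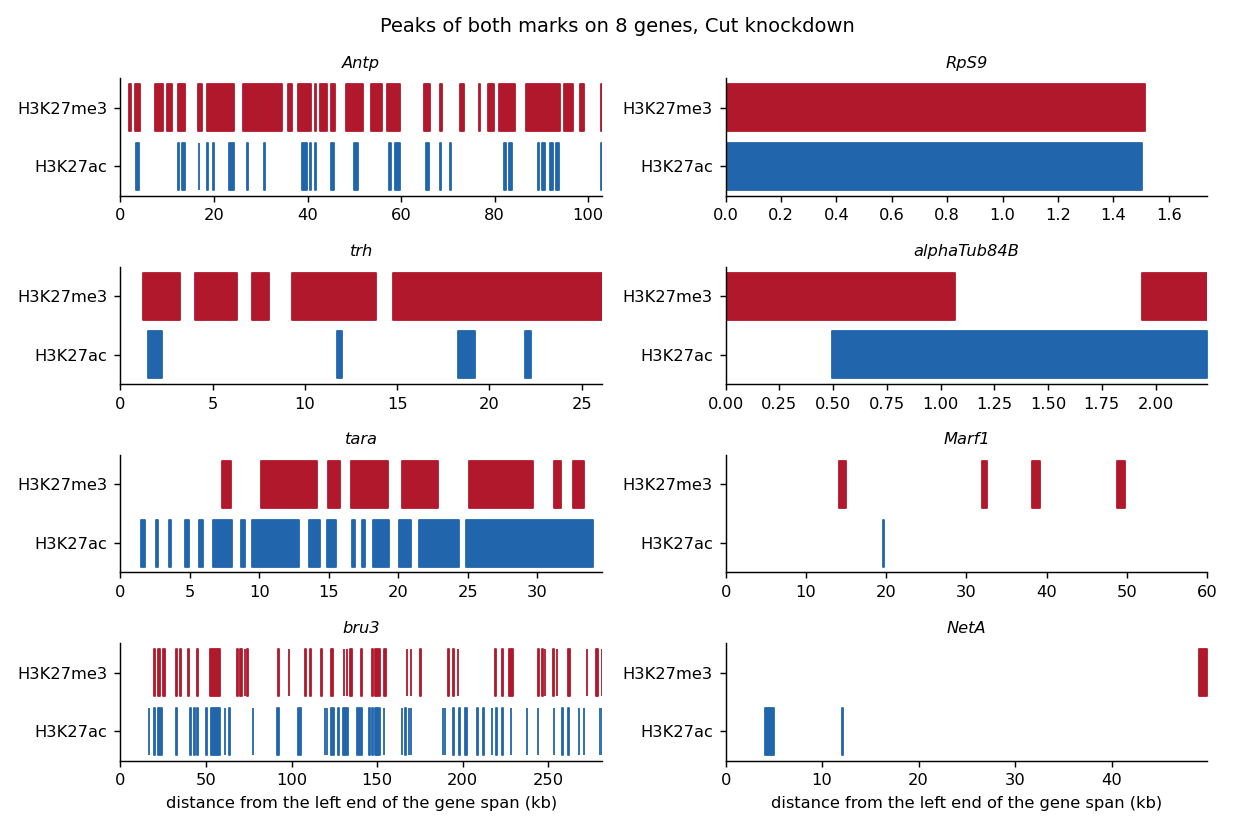
Bars mark knockdown peaks of H3K27me3 (red) and H3K27ac (blue) along 8 genes, by distance in kb from the left end of the gene span on the chromosome. Antp and trh have H3K27ac inside long H3K27me3 blocks, RpS9 has both marks over 1503 bp, bru3 alternates, and Marf1 and NetA have marks that share no base.

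Marks that lay apart were usually close. In the 793 genes without shared bases the nearest edges were a median of 678 bp apart (quartiles 256 and 1413 bp), and in 516 (65.1%) within 1000 bp. At a -log10 q of at least 2 the median was 3545 bp, and in the control it was 1172 bp. Of the genes with a symbol among the 10 with the most H3K27me3, Sesn, a stress-induced sestrin, had 3.90 kb of it and 2.43 kb of H3K27ac with 965 bp between them. Marf1, which encodes an RNA-binding protein of oogenesis, had 3.35 and 0.126 kb with 4632 bp between, and the calcium channel gene Ca-alpha1T had 3300 and 3364 bp with 3050 bp between. The maternal patterning protease ndl had 2.72 and 0.195 kb at 428 bp. The greatest distance, named after its value was seen, was 36905 bp in NetA, a guidance cue of the midline.

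H3K27me3 without H3K27ac was found on 1179 genes. The longest cover was in lz (X:9284649-9303636), a Runx factor of blood and eye, at 6.26 kb. The homeobox gene hbn was covered over its whole 6.24 kb. The Pax gene eyg had 3.44 kb, and btd, a zinc finger gene of head segmentation, 2.91 kb. The transporter gene Mdr49, at 4.88 kb, and the aminotransferase gene Got2, at 3.25 kb, were also among the 10. The proneural genes ato, ac and sc had H3K27me3 only, and ato was covered whole (1.22 kb). In the control, lz, hbn, btd, Mdr49 and ato had both marks, and eyg and Got2 H3K27ac only. Over the whole class, 683 of the 1179 genes (57.9%) had H3K27ac only in the control, below the 64.1% of all genes. A further 337 had neither, 98 both and 61 H3K27me3 only.

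H3K27ac without H3K27me3 was found on 2386 genes. Of these, 1675 (70.2%) had H3K27ac only in the control, near the 64.1% of all genes, 635 had neither and 60 both. The chromatin gene htk (X:18843663-18855858) had the most among genes with a symbol, at 3.72 kb. Next among these came the GABA receptor gene Rdl at 3.18 kb, Polr2A at 3.13 kb and the importin gene msk at 3.02 kb. Also among the 10 were mute, a histone pre-mRNA processing gene, at 2.62 kb and the adhesion gene ed at 2.65 kb. Rdl had 1.47 kb of H3K27me3 in the control, and ed 0.915 kb. Among genes with neither mark, the longest was Muc14A, a mucin gene of 52.6 kb on X, which had none in the control either.

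Along genes of at least 1000 bp with both marks, cut into 5 equal bins, each mark covered somewhat less of the outer bins than of the middle one. H3K27me3 covered 28.0% of the outer bins and 33.3% of the middle one (ratio 0.840), and H3K27ac 26.4 and 29.4% (ratio 0.899). H3K27ac was highest in the bins between these, at 30.4%. The gene table used gives no strand, so both ends were pooled and starts were not told from ends.

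Wide H3K27me3 peaks often held stretches of H3K27ac. Of the 807 peaks of 3000 bp or more, 707 (87.6%, 85.1 to 89.8%) overlapped H3K27ac, with a median of 2 separate H3K27ac stretches and at most 18. Of peaks under 1000 bp 54.6% did, and a wider peak meets the 1 bp rule more readily by construction. By bases, 32.8% of the wide peaks and 34.5% of those under 1000 bp lay under H3K27ac. A total of 1428 H3K27ac peaks met them, 1105 of these lay wholly inside, and 91.9% of their bases were under H3K27me3. Their median deposited fold was 2.09, against 2.15 for H3K27ac peaks that met H3K27me3 peaks under 1000 bp. Among the widest peaks on genes, one of 21.7 kb at Optix, an eye and head selector gene (2R:8020271-8042017), lay under H3K27ac for 14.5% of its bases. One of 14.3 kb in pros did for 26.8% and one of 13.8 kb at hh, the Hedgehog ligand, for 29.1%.

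The widest H3K27me3 peaks of all, by contrast, lay in sequence without protein-coding genes and were mostly under H3K27ac. They were of 46.3 kb (3R:122662-168941, 74.2% under H3K27ac), 38.4 kb (3R:50294-88691, 92.3%) and 36.7 kb (2R:19729616-19766332, 73.3%). The last covers a tandem array of 100 annotated 5S ribosomal RNA copies. Over that array the knockdown had 36.7 kb of H3K27me3 and 26.9 kb of H3K27ac, and the control 19.8 and 35.3 kb. The histone gene array of 2L (2L:21416953-21541681) had 85.3 kb of H3K27me3 in the knockdown, 79.1% of it under H3K27ac, and 71.3 kb in the control, 99.7% under it. Reads from repeated copies can map to many places, how the authors treated them is not given in the sources used here, and the part of this in the overlap was not tested.

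The marks of the 2 genotypes were also crossed. Of the knockdown H3K27me3 peaks, 73.3% overlapped an H3K27ac peak of the control and 62.3% one of the knockdown, and 50.2 and 33.3% of their bases did. The control H3K27ac list covers 22.2 Mb and the knockdown list 14.8 Mb, and the part of that difference was not tested. Of the control H3K27me3 peaks, 49.5% overlapped control H3K27ac and 34.5% knockdown H3K27ac.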

How the data were processed

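Both marks were profiled by chromatin immunoprecipitation and sequencing, once in each genotype. Per the labels' protocols, nuclei were fixed, sorted for dsRed and digested with micrococcal nuclease (15 U), then sonicated (3 min), with 2 µg of antibody for H3K27me3 and 1 µg for H3K27ac, against input DNA. The submitters' processing notes name dm6 as the build and list FastQC, Bowtie2, MACS2 and SICER. Tool versions, the peak threshold and duplicate handling are not given there.

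The deposited files hold 1 broad peak list per library, made by the authors. The deposited fold of a peak is its enrichment ratio over background, and its -log10 p and -log10 q are as deposited. The lowest -log10 q was 1.01 in both knockdown lists. The deposited score repeats the -log10 q on another scale and was not used. Fold and -log10 q were not compared between lists.

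Peaks on 6 arms were kept, those on Y set aside, and coordinates are 1-based. Gene spans were those of RefSeq, release 6, the assembly that dm6 is built on. The gene table has no strand and no gene starts, so promoters were not analysed and positions were taken from either gene end, contrary to the plan. A gene carried a mark at 1 bp of overlap. Within genes, bases under each mark, under both and under neither were counted, and runs of these states gave the orders. Changes were counted between marked states only, with unmarked stretches left out. No test was made. The counting was tested on simulated data against a base-by-base count. Python 3.11.15, numpy 2.4.6, pandas 2.3.3, scipy 1.17.1 and matplotlib 3.10.9 were used.

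Gene lists (29) and named genes were chosen with earlier results of these data known. Some list symbols were corrected or dropped once the gene table was seen. Named genes were a set list (ct, SA1, Nipped-B, vtd, hid, grim, rpr, skl, Ubx, abd-A, Abd-B, Antp, N, wor, mira, pros, E(z) and alphaTub84B), the 10 genes first by shared bases, by changes, by H3K27me3 among genes without shared bases, by H3K27me3 among genes with it alone and by H3K27ac among genes with it alone, the 5 longest genes with neither mark, and up to 4 members of each list per class. Genes with only a CG number count in these ranks and go unnamed. Members named as exceptions, or on chromosome 4, were picked after their values were seen. Alternatives were an overlap of 150 bp, spans extended by 500 bp, peaks of a -log10 q or a fold of at least 2, the longer list trimmed to the covered length of the shorter, genes that overlap no other gene, and all annotated genes.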

Additional observations from a re-analysis of the deposited data

Results flagged for a closer look

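Peaks on the Y chromosome, outside the genes sorted here, differed between the H3K27me3 libraries. The knockdown library had 194 H3K27me3 peaks there over 192 kb, and the control library 79 over 74.5 kb. H3K27ac had 251 peaks in the knockdown and 294 in the control. Of the H3K27me3 bases on Y, 48.6% lay under H3K27ac in the knockdown and 33.3% in the control. On the 6 other arms the H3K27me3 lists held 18692 and 4238 peaks, a larger ratio than on Y. The difference was not tested.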

How the results depend on the processing

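No paired analysis was possible because each mark and genotype has 1 library and no test was made. At a -log10 q of at least 2, genes with both marks fell to 1350 and genes with neither rose to 8276, the share with shared bases was 59.8%, the H3K27me3 bases under H3K27ac 10.6% and the median distance of separate marks 3545 bp. At a fold of at least 2, which keeps 27.8% of H3K27me3 and 80.3% of H3K27ac peaks, 2427 genes had both marks, 395 H3K27me3 only, 6482 H3K27ac only and 4618 neither, with 78.2% sharing bases and 22.2% of H3K27me3 bases under H3K27ac. With the H3K27me3 list trimmed to the covered length of the H3K27ac list, 5617 genes (40.3%) had both marks, 771 H3K27me3 only and 4162 H3K27ac only. There 87.8% shared bases, 33.0% of H3K27me3 bases lay under H3K27ac and the distance was 908 bp. Among the 8160 genes that overlap no other gene, fewer by construction, 4140 had both marks, 737 H3K27me3 only, 1380 H3K27ac only and 1903 neither. All 17684 annotated genes gave 5011 with neither. The share with shared bases was 90.2% at 150 bp of overlap, and the distance 734 bp with spans extended by 500 bp. The cause of these shifts was otherwise not tested. The counts of genes with both marks moved by over 1.5 times in 29 of 29 lists at a -log10 q of at least 2, in 15 among genes that overlap no other gene, in 5 with the trimmed list (proteasome, chemosensory, Osiris, serine protease and mucin genes) and in 1 at 150 bp (cell death activators). In 10 bins the ratios of outer to middle cover were 0.765 for H3K27me3 and 0.780 for H3K27ac. The planned promoter analysis was not run. Depth is unknown and limits every covered length.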
